A study of Mus musculus with 3 samples.

Results

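The transcription factor genes Fos, Fosb, Fosl2, Jun, Junb, Jund and Egr1 and the early response genes Ier2, Ier3 and Apold1 were followed across left ventricles of 3 mouse genotypes. These 10 AP-1 and Egr immediate early genes were chosen by symbol, and all 10 of them were found among the 15503 genes of the deposited tables, with a value in every library. Ventricular RNA of 3 mice on the C57BL6J strain was pooled for each genotype and sequenced once, so each genotype is a single library. The controls are labelled Egln1_floxed, mice that the series text calls wild type. In the Egln1_Tie2Cre pool a Tie2-driven Cre deletes Egln1, and in the third pool, Egln1_Hif2a_Tie2Cre, its label has both Egln1 and Hif2a (the gene Epas1) removed. Egln1 encodes PHD2, the oxygen-sensing hydroxylase through which hypoxia-inducible factors (HIF) are degraded, and Hif2a is one such factor. Tie2 drives Cre in endothelial and blood-forming cells and not in cardiomyocytes, whose RNA is part of each pool. The sources used here give neither age nor sex of the mice.

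Immediate early genes are transcribed within minutes of a stimulus without new protein synthesis, and their messages decay quickly. Fos and Jun family proteins pair through leucine zippers to form AP-1, which binds DNA, while Egr1 is a zinc finger factor of the same early wave. In heart muscle, stretch, hormones and injury are known to induce them through serum response factor, its Ets partners and MAP kinases.

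Values are FPKM, fragments scaled for transcript length and library size, and folds are plain ratios of FPKM. A gene was counted as differing when the log2 ratio of FPKM + 1 reached 1.5-fold or 2-fold and its mean FPKM over the pair was at least 1. Each genotype being 1 pool, differences could not be checked against replicates, no p-value was computed, and depth is unknown. In the authors' deposited tables, which compare pools and not mice, the q-value was 0.9996 for each of the 10 genes in each of the 3 comparisons. The targeted gene Egln1 stood at 129.5 FPKM in the controls, 95.7 in Egln1_Tie2Cre and 129.0 in the library labelled Egln1_Hif2a_Tie2Cre, so its Egln1 level does not match the label, and Epas1 was at 77.4, 65.0 and 54.5. These levels check the deletions only weakly, as undeleted cells of the ventricle are counted too. Cardiomyocyte markers were abundant in all 3 libraries, where 9 of them summed to between 54481 and 66495 FPKM. Markers of other cells also differed: 6 atrial genes summed to 62.3, 142.5 and 101.3 FPKM in the floxed, Egln1_Tie2Cre and Egln1_Hif2a_Tie2Cre libraries, and 4 neutrophil genes to 2.18, 56.3 and 10.1. In whole ventricle, fewer cells of a type and less RNA per cell cannot be told apart. The part of these markers in the values below was not tested.

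By level, the 10 genes spanned a wide range in the control ventricle. Ier3 was highest at 28.7 FPKM, followed by Jun at 19.3 and Jund at 19.1. Ier2 (9.65), Junb (7.97) and Egr1 (7.22) lay in the middle, and Fosl2 (4.62), Apold1 (4.13) and Fos (3.65) below them. Fosb was lowest at 0.610 FPKM and had a mean FPKM under 1 in every pair of libraries, so 9 of the 10 genes entered the counts. The classic early gene Fos stood at the 42.4th percentile of all genes with a value in the floxed library, and Ier3 at the 85.2nd. With 1 pool each, neighbours in this order such as Jun and Jund cannot be told apart by any spread.

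**Figure D1:**
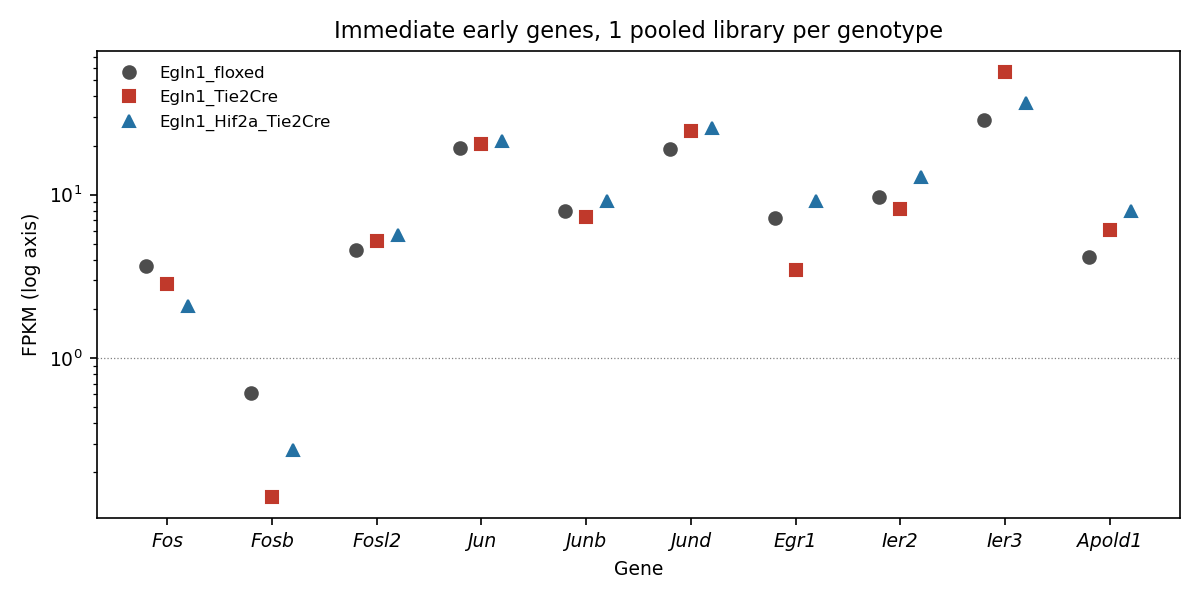
FPKM on a log axis for the 10 genes, with 1 point per pooled library (circles, Egln1_floxed; squares, Egln1_Tie2Cre; triangles, the library labelled Egln1_Hif2a_Tie2Cre). Egr1 was lowest in Egln1_Tie2Cre at 3.45 FPKM, Ier3 was highest there at 56.4, and Fos stepped down from 3.65 to 2.86 to 2.09.

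The upstream sequences of 3 of the genes are shown because they carry the short motifs for which this family and the study's oxygen-sensing pathway are known. They come from RefSeq (GRCm38.p6), read 5′ to 3′ on the gene's strand, and end where the annotated transcript begins. Capitals mark TGACG, the core shared by cyclic AMP response elements, ACGTG, the core of hypoxia response elements, and TATAAA, the TATA box.
Fos (chr12:85473710-85473889, plus strand): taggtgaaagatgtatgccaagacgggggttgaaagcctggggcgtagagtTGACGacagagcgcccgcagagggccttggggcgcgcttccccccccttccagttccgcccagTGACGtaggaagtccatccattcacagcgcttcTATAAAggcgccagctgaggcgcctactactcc
Fosb (chr7:19310052-19310231, minus strand): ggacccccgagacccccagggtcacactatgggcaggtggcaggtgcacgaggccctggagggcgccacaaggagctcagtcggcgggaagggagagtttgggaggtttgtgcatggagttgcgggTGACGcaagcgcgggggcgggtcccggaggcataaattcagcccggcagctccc
Ier3 (chr17:35821504-35821683, plus strand): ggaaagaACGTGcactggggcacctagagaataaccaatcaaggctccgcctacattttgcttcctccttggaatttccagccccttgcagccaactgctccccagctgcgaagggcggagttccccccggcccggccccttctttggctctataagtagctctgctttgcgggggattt
RefSeq windows were found for 8 of the 10 genes, all but Egr1 and Ier2, and the 250 bases before each start were searched on both strands. TGACG was found in 4 of the 8 windows (Fos, Fosb, Junb and Apold1), against 17.8% of all 32851 windows in the table. ACGTG was found in 3 (Jund, Ier3 and Apold1), against 16.6%, and TATAAA in 2 (Fos and Apold1), against 12.4%. The 2 cores share the letters ACG and could overlap in a sequence such as TGACGTG, but did not do so in these windows. The Apold1 window lies within its first exon as GENCODE annotates it. The full AP-1 site TGACTCA (4.46% of windows), the full cyclic AMP response element TGACGTCA (1.55%), the Egr site GCGTGGGCG (0.536%), the Ets core CCGGAA (12%) and the CArG box bound by serum response factor (1.47%) were in 0 of the 8. A match is only a match of letters, and these windows do not reach distal elements or any site more than 250 bases before the start. A motif absent here can thus lie further upstream, and nothing is shown for Egr1 and Ier2.

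Fos family transcripts went different ways. Fos, the founding AP-1 subunit that needs a Jun partner to bind DNA (GRCm38 chromosome 12, 85473890 to 85477273), was 3.65 FPKM in the floxed library, 2.86 in Egln1_Tie2Cre and 2.09 in the library labelled Egln1_Hif2a_Tie2Cre. Its control value was thus the highest of the 3, at 1.28-fold and 1.75-fold above the others. Fosb, a close relative with a truncated splice form (chromosome 7, 19302696 to 19310051), was likewise highest in the floxed library, at 0.610 FPKM against 0.142 and 0.275. Its plain ratios of 4.28-fold and 2.21-fold rest on values under 1 FPKM. Fosl2, which encodes Fra-2, an AP-1 subunit known for slower and longer expression (chromosome 5, 32135801 to 32157842), was 4.62, 5.22 and 5.65 FPKM in the same order of libraries. Fosl2 was the one of the 3 with its lowest value in the control. The ratio of Fosl2 to Fos transcripts was 1.26 in the floxed library, 1.83 in Egln1_Tie2Cre and 2.71 in the library labelled Egln1_Hif2a_Tie2Cre. Each of these genes has 4 exons in its longest coding transcript, and none overlaps another annotated gene.

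Jun family transcripts were closer together across the libraries. Jun, the main dimer partner of Fos proteins (chromosome 4, 95049034 to 95052222), was 19.3, 20.4 and 21.4 FPKM in the floxed, Egln1_Tie2Cre and Egln1_Hif2a_Tie2Cre libraries, a span of 1.11-fold and the narrowest of the 10 genes. Jund, the subunit with the steadiest basal expression (chromosome 8, 70698949 to 70700616), was 19.1, 24.7 and 25.4 FPKM, so that both Cre libraries lay above the control by 1.29-fold and 1.33-fold. Junb, which often opposes Jun in proliferation (chromosome 8, 84974484 to 84978718), was 7.97, 7.35 and 9.15 FPKM. These 3 single-exon genes are uncertain, because each overlaps a gene on the other strand and no source states that counting used the strand. Junb shares exon sequence with Prdx2, a peroxidase gene at 236.9, 277.8 and 309.2 FPKM, and Jund with the antisense gene Gm11175 at 35.6, 28.1 and 39.2 FPKM. Jun overlaps the antisense gene Junos, which is not used here.

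Summed over the 6 subunits, AP-1 transcripts came to 55.3 FPKM in the floxed library, 60.7 in Egln1_Tie2Cre and 63.9 in the library labelled Egln1_Hif2a_Tie2Cre. Jun family members made up 83.9%, 86.4% and 87.5% of that sum. The Fos family sum was 8.88, 8.23 and 8.01 FPKM, while the share of Fos itself was 6.61%, 4.71% and 3.27%. Jund made up 34.6%, 40.7% and 39.8%, and Jun 34.9%, 33.6% and 33.4%. Total subunit message differed by at most 1.16-fold between any pair of libraries.

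**Figure D2:**
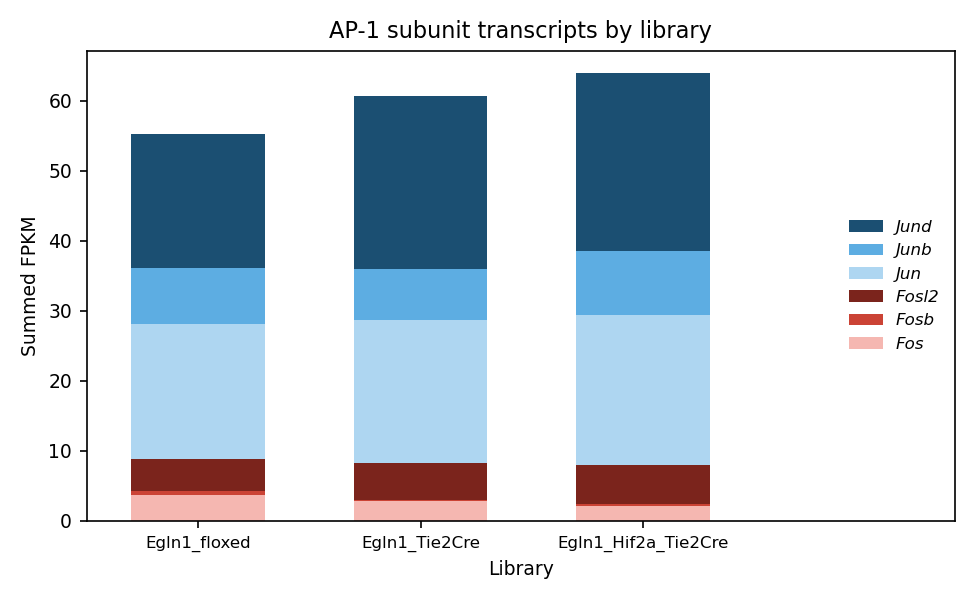
Stacked bars of FPKM for the 6 AP-1 subunit genes in each pooled library, starting at 0. Jun family genes (blue) made up 83.9% to 87.5% of the summed FPKM, and the Fos segment at the base shrank from 3.65 to 2.09 FPKM.

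Egr1, the zinc finger factor induced by stretch and growth factors (chromosome 18, 34859823 to 34864984), had the widest span of the genes above 1 FPKM. It was 7.22 FPKM in the floxed library, 3.45 in Egln1_Tie2Cre and 9.16 in the library labelled Egln1_Hif2a_Tie2Cre. The Egln1_Tie2Cre pool was low, at 2.09-fold below the control and 2.65-fold below the other Cre pool, and the last was 1.27-fold above the control. On the log2 scale of FPKM + 1 these differences were -0.88 (Egln1_Tie2Cre over floxed), 1.19 (the third pool over Egln1_Tie2Cre) and 0.31 (the third pool over floxed). Of all genes kept, 9.22%, 6.77% and 31.4% were at least as far apart in these comparisons. Set against Jun, Egr1 message was 0.374 of its level in the control, 0.169 in Egln1_Tie2Cre and 0.429 in the third pool. Ier2, a small nuclear early response protein (chromosome 8, 84661331 to 84662852), had the same order of libraries with a narrower span, at 9.65, 8.18 and 12.8 FPKM. Its largest difference, 1.56-fold between the Cre pools, was 0.58 on the log2 scale of FPKM + 1 and fell just short of the 1.5-fold count.

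Ier3, a stress-induced regulator of cell survival (chromosome 17, 35821684 to 35822923), was the one gene of the 10 with its highest value in Egln1_Tie2Cre. It was 28.7 FPKM in the floxed library, 56.4 in Egln1_Tie2Cre and 36.3 in the library labelled Egln1_Hif2a_Tie2Cre. The Egln1_Tie2Cre pool was 1.96-fold above the control and 1.55-fold above the other Cre pool, while that pool was 1.26-fold above the control. The log2 ratio of FPKM + 1 over floxed was 0.95 in Egln1_Tie2Cre, a distance reached by 8.37% of all genes kept, and 0.33 in the other, reached by 28.4%. Egr1 and Ier3 therefore differed from the control in opposite directions in the Egln1_Tie2Cre pool.

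Apold1, an endothelial early response gene of the apolipoprotein L family (chromosome 6, 134981718 to 134986836), was lowest in the control. It was 4.13 FPKM in the floxed library, 6.07 in Egln1_Tie2Cre and 7.95 in the library labelled Egln1_Hif2a_Tie2Cre, or 1.47-fold and 1.93-fold above the control. The log2 ratio of FPKM + 1 in the last comparison was 0.80, and 2.50% of all genes kept were at least as far apart. Endothelial markers were also above the control in sum: 12 of them came to 493.9, 601.6 and 600.9 FPKM, which is 1.22-fold higher in each Cre pool. Singly, 9 lay above the control and 3 below in Egln1_Tie2Cre (median log2 ratio 0.25), where 51.9% of all genes lay above. In the third pool 10 lay above and 2 below (median 0.16), against 49.4%. Pecam1, a junction protein, was 54.7, 67.7 and 63.9 FPKM, Cdh5, the endothelial cadherin, was 64.3, 56.9 and 58.1, and Tek, the Tie2 receptor, was 16.5, 23.6 and 17.5. The part of these markers in the Apold1 values was not tested.

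Counted by comparison, few of the 9 counted genes lay past 1.5-fold. In Egln1_Tie2Cre against floxed, 1 was higher (Ier3) and 1 lower (Egr1), where 9.46% and 8.73% of 11978 genes kept were. At 2-fold the counts were 0 and 0, against 3.93% and 3.84%. Of the 9, 5 lay above the control by any amount, against 51.9% of all genes, and their median log2 ratio was 0.08 beside 0.02 for all genes. In Egln1_Hif2a_Tie2Cre against floxed, 1 was higher (Apold1) and 1 lower (Fos), where 4.42% and 3.28% of 11888 genes were, and 0 and 0 were past 2-fold (0.538% and 0.437%). In this comparison 8 of the 9 lay above the control, against 49.4% of all genes, and the median was 0.31 beside 0.00. Between the Cre pools, Egr1 was higher and Ier3 lower in the library labelled Egln1_Hif2a_Tie2Cre, where 9.67% and 9.64% of 11999 genes were past 1.5-fold, and at 2-fold the counts were 1 (Egr1) and 0, against 4.31% and 4.08%. In that comparison 7 of the 9 lay above, against 47.5%, with a median of 0.10 beside -0.02. Comparisons with the floxed library share that library, and all 3 use the same pools, so their counts are not independent.

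**Figure D3:**
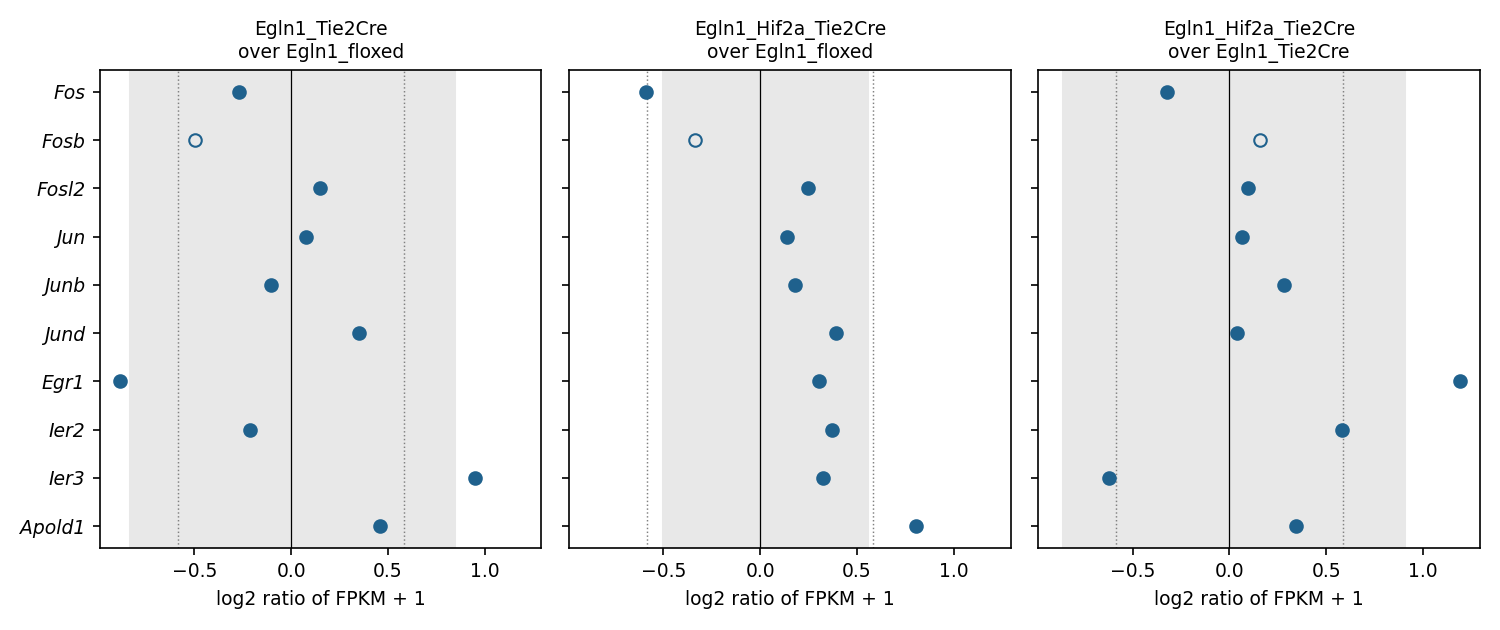
Log2 ratio of FPKM + 1 for each gene in the 3 comparisons (filled points, counted genes; open points, Fosb, under a mean FPKM of 1). Grey bands span the 5th to 95th percentile of all genes kept and dotted lines mark 1.5-fold. Egr1 (-0.88) and Ier3 (0.95) lie outside the band on the left, and Fos (-0.59) and Apold1 (0.80) outside it in the middle.

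Of the 10 genes, 7 had their highest value in the library labelled Egln1_Hif2a_Tie2Cre, where 30.9% of 11968 genes averaging 1 FPKM or more did. Fos and Fosb were highest in the floxed library (29.4% of all genes) and Ier3 in Egln1_Tie2Cre (39.6%). The lowest value fell in the control for Fosl2, Jun, Jund, Ier3 and Apold1 (30.1% of all genes), in Egln1_Tie2Cre for Fosb, Junb, Egr1 and Ier2 (36.2%), and in the third pool for Fos (33.7%).

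Genes with few exons sat lower in the Egln1_Tie2Cre library than other genes, which touches this family directly. The median log2 ratio over floxed was -0.26 among 248 coding genes of 1 exon and -0.17 among 2034 with 2 to 4 exons, against 0.05 among 8892 with more. In Egln1_Hif2a_Tie2Cre over floxed the same medians were 0.00, 0.09 and -0.03. All 10 genes have 1 to 4 exons. Of coding genes with 2 to 4 exons, 6.24% were at least 1.5-fold higher in Egln1_Tie2Cre over floxed and 16.3% lower. These shares were 9.30% and 2.36% in Egln1_Hif2a_Tie2Cre over floxed. Between the Cre pools 19.5% were higher in the library labelled Egln1_Hif2a_Tie2Cre and 4.03% lower. Each ratio was therefore also given relative to the median of the 200 coding genes nearest in transcript length and exon number. On that scale Ier3 was 1.13 and Egr1 -0.67 in Egln1_Tie2Cre over floxed, so both kept their direction and their place past 1.5-fold. Apold1 (0.73) and Jund (0.63) came to lie past 1.5-fold as well, while Junb turned from -0.10 to 0.17 and Ier2 from -0.21 to 0.07. Between the Cre pools, 3 of the 9 genes lay above rather than 7, with Fosl2, Jun, Junb and Jund turning below 0 and Egr1 at 0.98. Relative to floxed, the library labelled Egln1_Hif2a_Tie2Cre kept 8 of 9 above.

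**Figure D4:**
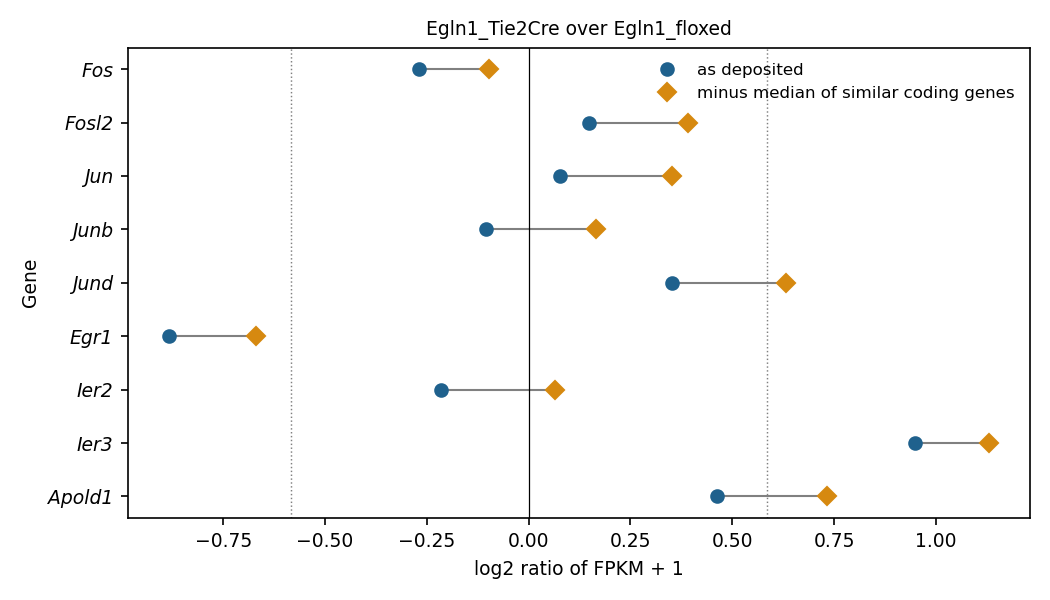
Log2 ratio of FPKM + 1 for Egln1_Tie2Cre over Egln1_floxed in the 9 counted genes, as deposited (circles) and minus the median of 200 coding genes of similar length and exon number (diamonds). Dotted lines mark 1.5-fold. Every gene shifted upward, Ier3 from 0.95 to 1.13 and Egr1 from -0.88 to -0.67.

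Among other members of the AP-1 and Egr families, listed together with the corepressors Nab1 and Nab2, 11 genes were kept in each comparison with the control. In Egln1_Tie2Cre, 3 lay past 1.5-fold above and 0 below (median log2 ratio -0.01), where 9.46% and 8.73% of all genes did. Atf3, a stress-induced bZIP repressor, was 1.66 FPKM in the floxed library, 7.60 in Egln1_Tie2Cre and 5.63 in the library labelled Egln1_Hif2a_Tie2Cre. Maff, a small Maf protein without a transactivation domain, was 3.48, 7.15 and 7.90 FPKM, and Nab2, the corepressor that binds Egr1, was 2.33, 4.45 and 2.80. Atf3 and Maff were thus above the control in both Cre pools. In the third pool 2 of 11 were past 1.5-fold above (Atf3 and Maff) and 0 below (median 0.16), against 4.42% and 3.28% of all genes. Fosl1, which encodes Fra-1, was low at 1.24, 1.07 and 0.905 FPKM. Egr2 (0.305, 0.607 and 0.480) and Egr3 (0.180, 0.454 and 0.173), relatives of Egr1, were under 1 FPKM in all libraries. Jdp2, a repressor that pairs with Jun, was 5.69, 4.82 and 6.45 FPKM.

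Other immediate early genes lay on both sides of the control in each Cre pool, with 26 of 42 above it in Egln1_Tie2Cre and 24 of 40 in the other. Of all genes, 51.9% and 49.4% lay above. Past 1.5-fold, the Egln1_Tie2Cre pool had 10 of 42 kept genes higher and 3 lower (median 0.19), and the library labelled Egln1_Hif2a_Tie2Cre had 7 of 40 higher and 3 lower (median 0.17). The background for these counts is the 9.46% and 8.73%, and the 4.42% and 3.28%, given above. Nr4a1, an orphan nuclear receptor of the early wave, was 5.20 FPKM in the floxed library, 12.9 in Egln1_Tie2Cre and 7.29 in the third pool. Klf4, a flow- and stress-responsive factor, was 9.78, 18.6 and 21.5 FPKM, and Klf2, its relative in endothelium, was 20.6, 31.6 and 33.4. Ctgf, a matricellular growth factor partner, was 31.5, 60.4 and 30.1 FPKM, with the control and the third pool side by side. Zfp36, which destabilises early messages, was lowest in Egln1_Tie2Cre at 17.1, 9.33 and 14.9 FPKM, as was Dusp1, a MAP kinase phosphatase, at 39.6, 28.3 and 45.8. Cyr61, a matricellular serum response target, was 25.2, 17.5 and 26.6 FPKM, an order of libraries like that of Egr1. Btg2, an antiproliferative early gene, was 12.4, 13.2 and 17.6 FPKM, and Myc 1.58, 2.21 and 1.31.

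**Figure D5:**
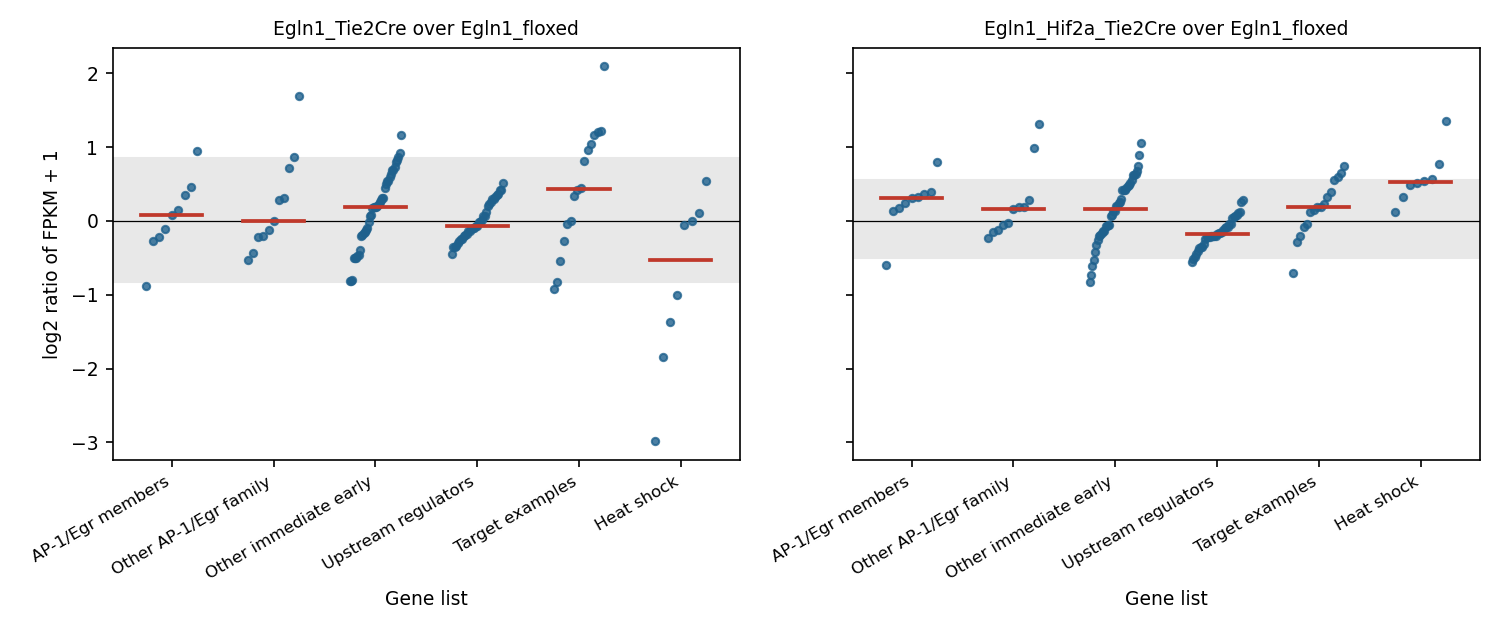
Log2 ratio of FPKM + 1 for kept genes of 6 lists in Egln1_Tie2Cre (left) and the library labelled Egln1_Hif2a_Tie2Cre (right) over Egln1_floxed, with 1 point per gene, a red bar at each list's median and a grey band from the 5th to the 95th percentile of all genes kept. Medians of the 9 counted genes of the family were 0.08 and 0.31, those of the heat shock list -0.53 and 0.53.

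Regulators upstream of the family lay close to the control. Of 35 factors and kinases kept, 0 were at least 1.5-fold higher or lower in either Cre pool against floxed, with medians of -0.07 and -0.17. Of all genes, 9.46% were higher and 8.73% lower by that much in Egln1_Tie2Cre, and 4.42% and 3.28% in the third pool. Srf, which binds the CArG box, was 21.4, 19.5 and 20.8 FPKM in the floxed, Egln1_Tie2Cre and Egln1_Hif2a_Tie2Cre libraries. Its Ets partner Elk1 was 5.10, 3.46 and 4.24 FPKM, and Elk4 was 16.9, 14.1 and 17.3. Creb1, which binds cyclic AMP response elements, was 3.78, 3.55 and 4.80 FPKM. The MAP kinase Mapk3 (ERK1) was 26.9, 34.8 and 28.5 FPKM. Message levels say nothing of the phosphorylation through which these proteins act.

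Genes often cited as AP-1 or Egr1 targets had a wider spread than the regulators. Past 1.5-fold, 7 of 16 kept genes were higher in Egln1_Tie2Cre and 2 lower (median 0.44), against 9.46% and 8.73% of all genes. Of the higher ones 5 were past 2-fold, against 3.93% of all genes. Timp1, a metalloproteinase inhibitor, was 1.53, 9.81 and 2.98 FPKM in the floxed, Egln1_Tie2Cre and Egln1_Hif2a_Tie2Cre libraries, but lies inside another gene, so its value is uncertain. Ccnd1, the G1 cyclin, was lower in Egln1_Tie2Cre at 28.8, 19.5 and 32.8 FPKM. In the library labelled Egln1_Hif2a_Tie2Cre, 3 of 16 were past 1.5-fold in the higher direction and 1 in the lower (median 0.18), against 4.42% and 3.28%.

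Heat shock genes, another early stress class, were mixed in Egln1_Tie2Cre, where 3 of 8 kept genes lay above the control and 5 below. Of all genes, 51.9% lay above. Past 1.5-fold, 4 were lower and 0 higher, against 8.73% and 9.46% of all genes. In the library labelled Egln1_Hif2a_Tie2Cre all 8 lay above the control, against 49.4% of all genes. There 2 were past 1.5-fold higher and 0 lower, against 4.42% and 3.28%. The 4 lower genes were Dnaja1, Hspa8, Hspb1 and Hsp90aa1, singled out after their values were seen. Dnaja1, an Hsp40 co-chaperone, was 40.9 FPKM in the floxed library, 4.31 in Egln1_Tie2Cre and 70.7 in the third pool. Hspa8, the constitutive Hsc70 chaperone, was 391.6, 108.5 and 570.2 FPKM. Hspb1, a small heat shock protein, was 165.4, 63.5 and 245.9, and Hsp90aa1, the inducible Hsp90, was 53.2, 26.1 and 137.9. Each of these was thus lowest in Egln1_Tie2Cre and highest in the third pool, though near-identical copies that could share their reads were not searched for. Dnajb1, a heat-inducible chaperone, was 7.23, 7.24 and 9.29 FPKM, with the first pair side by side. Hspa1a and Hspa1b, near-identical copies and therefore uncertain, lay between 0.756 and 1.56 FPKM.

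The genes whose pattern over the 3 libraries was most like that of Fos were sought among 7002 genes at 5 FPKM or more in each library, by distance between centred log2 values. They were Pik3ip1 (distance 0.0088), Vps33a, Acsl1, Nfic and Smurf1, which stepped down through the libraries as Fos did, such as Acsl1 at 275, 230.1 and 184.5 FPKM. Those most like Egr1 were 1810037I17Rik (distance 0.026), Scoc, Anp32b, Islr and Ifi203, such as Islr at 16.4, 8.67 and 19.9 FPKM. With 3 libraries, many genes share any given pattern.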

How the data were processed

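RNA of left ventricle from 3 pools, 1 per genotype, was compared in 3 tables that each hold a pair of libraries. The deposited tables give, per the file headers, FPKM and a q-value from the authors' own comparison of 2 libraries. TopHat2 and Cuffdiff are named in the submitters' processing notes, with no version, and the sources used here give no genome build or annotation. Columns were assigned by the titles in each table's name and checked on values that recur between tables, where the floxed FPKM matched for 14368 of 14369 genes and the other libraries for all shared genes.

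The log2 ratio of FPKM + 1 was computed with Python 3.11.15 and pandas 2.3.3 for genes averaging 1 FPKM or more over the pair, and understates differences of low genes. The 2-fold calls were run on simulated data with larger changes, in abundant genes only and with little noise. That run checked the arithmetic, and says nothing of 1.5-fold calls or of genes as low as most members. Positions, exon numbers and overlaps came from GENCODE M21 (GRCm38), where 15293 of 15503 identifiers matched. A blastn search of the members' transcripts against all annotated transcripts found other genes (at 90% identity over 100 bases) only for Jun, Junb and Jund, each the opposite-strand neighbour. FPKM keep no read numbers, so depth and counting precision are unknown. Members and lists were chosen with earlier results of these data known. All 10 members are named. Other genes were named by function and not by value, with 2 exceptions. These are the heat shock genes Dnaja1, Hspa8, Hspb1 and Hsp90aa1, and the genes most like Fos or Egr1 in pattern. Some listed genes are counted with their list and not reported here by name. Alternatives were omitting the filter, raising it to 5 FPKM, adding 0.1 in place of 1, centring on all genes or on similar genes and, chosen after seeing the data, leaving out Jun, Junb and Jund and counting members above by any amount. Markers of fibroblasts, macrophages and smooth muscle were listed as well, and their sums differed by 1.03-fold to 1.36-fold from the control. In the floxed, Egln1_Tie2Cre and Egln1_Hif2a_Tie2Cre libraries macrophage markers summed to 139.8, 103.1 and 181.8 FPKM. Fibroblast markers summed to 434.3, 422.8 and 517.3, and smooth muscle markers to 295.1, 275.4 and 336.0. Each sum had the order of libraries of Egr1, Ier2 and Junb, and its part in their values was not tested.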

Additional observations from a re-analysis of the deposited data

How the results depend on the processing

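With 1 pool per genotype, no replicate could be left out. No paired analysis was possible because each group holds a single library. Of the 108 alternative values of counts and medians, 97 stayed on their side of 1.5-fold or within 1.5 times the count. Of 131 alternative values of single genes 127 stayed on their side of 1.5-fold, with 0 changing sign among genes past 1.5-fold. Changes of sign within 1.5-fold were counted as staying. With centring on similar genes these were Junb and Ier2 in Egln1_Tie2Cre over floxed, and Fosl2, Jun, Junb and Jund between the Cre pools. Omitting or raising the filter leaves the ratio of a single gene as it was. The single-gene values under those settings could therefore not move, and their agreement is no sign of stability. The same holds for counts past 1.5-fold or 2-fold without Jun, Junb and Jund, as none of these was past 1.5-fold. It also holds for those counts without the filter, which adds only Fosb, within 1.5-fold on the FPKM + 1 scale. Medians all lay within 1.5-fold, so a change of sign counted as staying. In Egln1_Tie2Cre over floxed the median went from 0.08 to -0.01 without the filter. In Egln1_Tie2Cre over floxed, centring on similar coding genes put 3 genes past 1.5-fold above and 1 past 2-fold, and a pseudocount of 0.1 gave 1 (Egr1) at least 2-fold lower. In Egln1_Hif2a_Tie2Cre over floxed, a mean FPKM of at least 5 left 0 genes at least 1.5-fold lower, since Fos is under that minimum. Between the Cre pools, 2 genes were at least 1.5-fold higher with a pseudocount of 0.1 or with centring on all genes (Ier2 at 0.64 and 0.61), and centring on similar genes left 0 at least 2-fold higher and 3 above by any amount. Without Jun, Junb and Jund, 3, 5 and 4 of 6 genes lay above in the order of comparisons given in the report, fewer by construction. The median in Egln1_Tie2Cre over floxed ran from -0.03 without these 3 genes to 0.35 with centring on similar genes.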
